A study of Oryza sativa Japonica Group with 15 samples.

Results

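The transcripts described here are those of 6 rice auxin response factor (ARF) genes, ARF2, ARF10, ARF12, ARF15, ARF16 and ARF17, measured in the shoot base of seedlings laid on their side. They are 6 of the 17 ARF genes, and of 17905 genes in all, for which the array annotation gave a probe set of their own, and 1 probe set was read for each gene. The probe sets of ARF2, ARF12, ARF15 and ARF17 were named in advance, and those of ARF10 and ARF16 were taken by gene symbol. The symbols ARF10 and ARF16 are ambiguous in the annotation, since the genes numbered ARF18 and ARF1 also carry them as older names. The genes numbered ARF10 and ARF16 in the same scheme as the other 4 were used, although the alternative probe sets were brighter (mean log2 signal 5.25 for the ARF18 gene and 7.07 for the ARF1 gene, against 3.57 for ARF10 and 4.51 for ARF16). The choice matters for the flanks. At 6 h the log2 difference of lower minus upper flank was 0.01 (SE 0.15) for ARF18 and -0.04 (SE 0.16) for ARF1, against 1.33 for ARF10 and 0.65 for ARF16. Because the 6 genes were chosen with their signals over the 5 groups known, their values are given as a description with standard errors and no p-value.

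ARF proteins bind auxin response elements in the promoters of auxin-regulated genes. When auxin is low, Aux/IAA proteins bind certain ARF proteins and recruit TOPLESS-like corepressors. Auxin triggers the destruction of the Aux/IAA proteins, and the ARF proteins that were bound by them are then free to act. Some ARF proteins are activators and others are repressors of transcription, and not all of them need be released in this way. In a reoriented shoot, auxin moves toward the lower flank, where cells elongate more and the shoot bends upward. Several ARF transcripts are themselves cut by small RNAs: ARF2 and ARF15 belong to the group cut by the trans-acting siRNA of the TAS3 locus, ARF10 to the miR160 targets, and ARF12 and ARF17 to the miR167 targets. ARF16 is the counterpart of the Arabidopsis activators ARF7 and ARF19, which act in the gravitropic and phototropic bending of that species.

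Shoot bases came from 21-day-old japonica rice seedlings grown in soil under day and night cycles, and all of them were held in darkness beforehand, with the treatment itself under dim green light. The 5 groups were the whole shoot base before reorientation (0 h), and the lower and upper flanks taken 0.5 h and again 6 h after the seedlings were turned to the horizontal, each with 3 biological replicates (15 Affymetrix Rice Genome arrays). Each RNA came from pooled shoot bases or pooled flanks, so a replicate stands for a pool of plants and not for 1 plant. The 0 h sample was the undivided base, and no flanks of upright seedlings were analysed here, so cutting, the hours spent out of daylight and the time of day cannot be told apart from gravistimulation in any comparison with 0 h. Flanks taken at the same time do not have that limit. In such bulk tissue, fewer cells of a type and less RNA per cell cannot be told apart.

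Signals are given as log2 values with the median of each array at 0, so that a difference of 1 is a 2-fold difference. They are comparable between arrays for 1 probe set, but not between probe sets. The median raw signal was 22.8 to 29.6 on the 5 replicate 1 arrays and 17.2 to 23.0 on the other 10 arrays, and the 5′ probe set of the spiked-in control DapX read 107 to 209 on the replicate 1 arrays against 16.5 to 26.3 on the others. Since replicate 1 held all 5 groups, the flank differences are also given without it. All 6 transcripts lay in the brighter part of the arrays, with ARF12 between the 95.5 and 98.9 percentile of all probe sets, ARF17 between 94.1 and 97.8, ARF15 between 91.6 and 96.1, ARF2 between 82.2 and 92.6, and ARF16 between 82.2 and 90.9. ARF10 ranged most widely, between the 60.8 and 86.5 percentile.

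At 6 h the 6 transcripts divided between the flanks. ARF10, ARF15, ARF16 and ARF2 had a higher signal in lower than in upper flanks, by 1.33 (SE 0.22), 0.65 (SE 0.15), 0.65 (SE 0.13) and 0.41 (SE 0.21) on the log2 scale, which are 2.51-fold, 1.57-fold, 1.57-fold and 1.33-fold. ARF12 and ARF17, the pair of miR167 targets, had a slightly weaker signal in the lower flank, with differences of -0.21 (SE 0.18) and -0.22 (SE 0.12). In all 6 the 3 lower-flank arrays did not overlap the 3 upper-flank arrays, 4 with the lower flank higher and 2 with it lower, where 18.4% of the 28630 probe sets tested showed no overlap (7.42% higher and 11% lower in the lower flank). The genes were picked with this pattern in view, so these counts are not evidence of it.

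**Figure D1:**
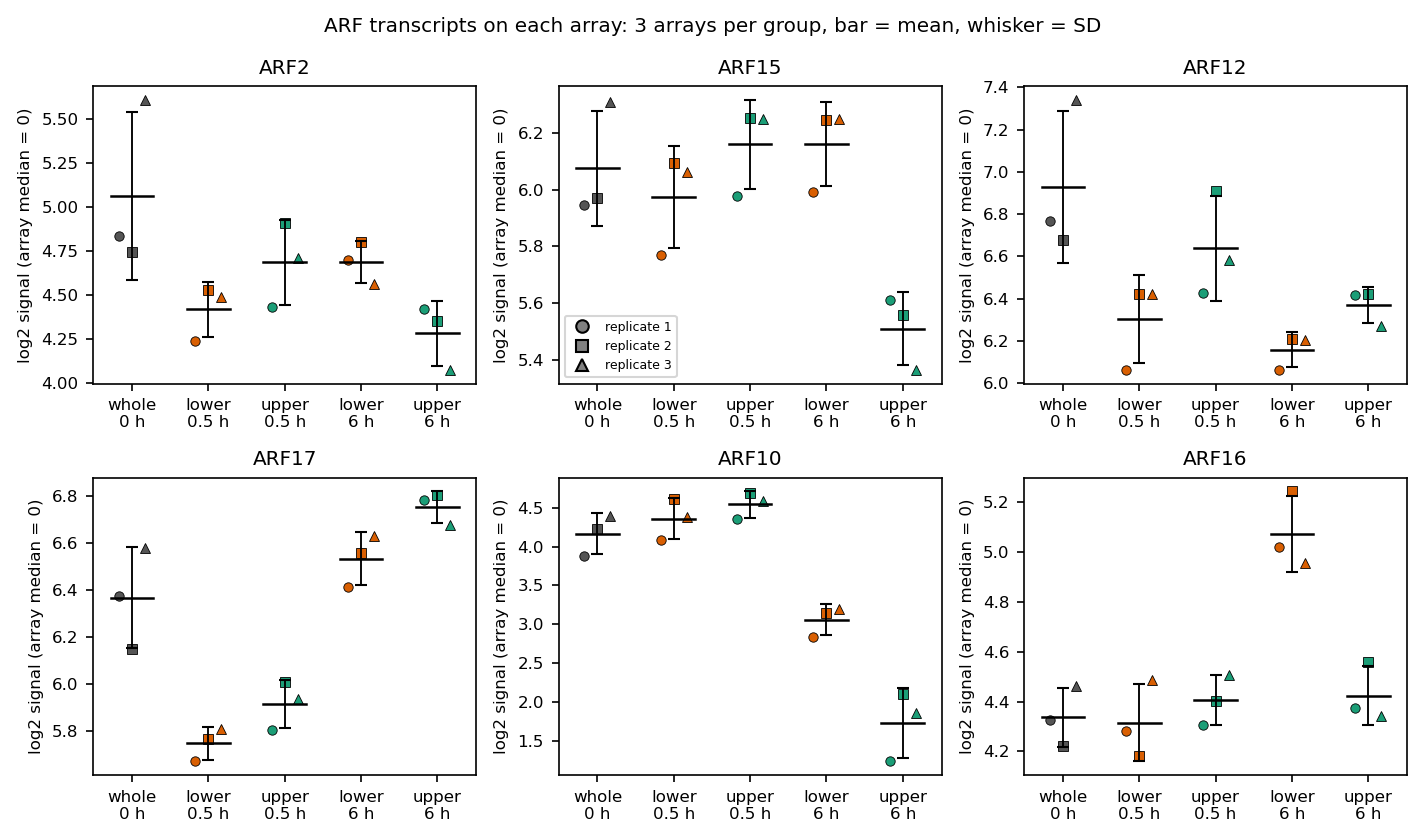
Log2 signal (array median at 0) of the 6 ARF transcripts on each of the 15 arrays, by group in order of time, with lower (orange) and upper (green) flanks and whole shoot bases (grey); bars are means, whiskers SD, and symbols mark replicate numbers. ARF10 is lowest in the upper flank at 6 h (1.24 to 2.11), ARF16 is highest in the lower flank at 6 h (4.95 to 5.25), and the vertical scale differs between panels.

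The TAS3 targets came first in the order of roles. ARF15, a member of the repressor-type group that in Arabidopsis includes ARF3 and ARF4, read 5.95, 5.97 and 6.31 at 0 h in replicates 1, 2 and 3. At 0.5 h it read 5.77, 6.09 and 6.06 in the lower flank and 5.98, 6.25 and 6.25 in the upper flank. At 6 h it read 5.99, 6.24 and 6.25 in the lower flank and 5.61, 5.56 and 5.36 in the upper flank. Only the upper flank at 6 h stood apart: its highest array was below the lowest array of every other group, while the other 4 groups overlapped. The difference of the upper flank at 6 h from 0 h was -0.56 (SE 0.15), and that of the lower flank at 6 h was 0.09 (SE 0.15). Thus at 6 h it was the upper flank that departed from 0 h, while the lower flank overlapped the 0 h arrays. Among the array's own rice controls, the 3′ probe sets of actin and cyclophilin had a like pattern. Their differences from 0 h were -0.58 and -0.45 in the upper flank at 6 h, and -0.04 and -0.02 in the lower flank. Those of GAPDH and ubiquitin were -0.09 and 0.008 in the upper flank. The part of this in the difference of ARF15 was not tested.

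ARF2, the other gene of that group among the 6, read 4.84, 4.74 and 5.61 at 0 h, with replicate 3 well above the other two arrays. It read 4.24, 4.53 and 4.49 in the lower flank and 4.43, 4.91 and 4.71 in the upper flank at 0.5 h, and 4.70, 4.80 and 4.56 in the lower flank and 4.42, 4.35 and 4.07 in the upper flank at 6 h. When the groups were ordered by mean, every neighbour overlapped the next, so the order of the 5 groups was not resolved. Against 0 h the differences were -0.65 in the lower and -0.38 in the upper flank at 0.5 h, and -0.38 in the lower and -0.78 in the upper flank at 6 h (SE 0.21 each). These rest in part on the third 0 h array: without it they were -0.37, -0.10, -0.10 and -0.51 in the same order. The difference between the flanks does not use the 0 h arrays.

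Further probe sets were read for ARF2, and they are described because the brightest one gave the weakest of the 4 positive flank differences. A second probe set gave 2.81, 3.32 and 2.93 in the lower flank against 2.92, 2.65 and 2.29 in the upper flank at 6 h, and the groups overlapped (difference 0.40, SE 0.26). Another, the third, was paired with the gene in a table of the study and chosen after its values were seen. It gave 3.45, 3.17 and 3.37 in the lower flank against 2.82, 2.39 and 2.38 in the upper flank, without overlap (0.80, SE 0.26). At 0.5 h the second and the third gave differences of -0.07 and -0.00073 between the flanks, where the brightest gave -0.27. Over the 15 arrays the brightest probe set correlated with the second at r = 0.88 and with the third at r = 0.82, and the second with the third at r = 0.72. The lower flank was thus higher at 6 h by both probe sets that the annotation gives to ARF2 (0.41 and 0.40). The largest difference, 0.80, came from the third probe set.

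**Figure D2:**
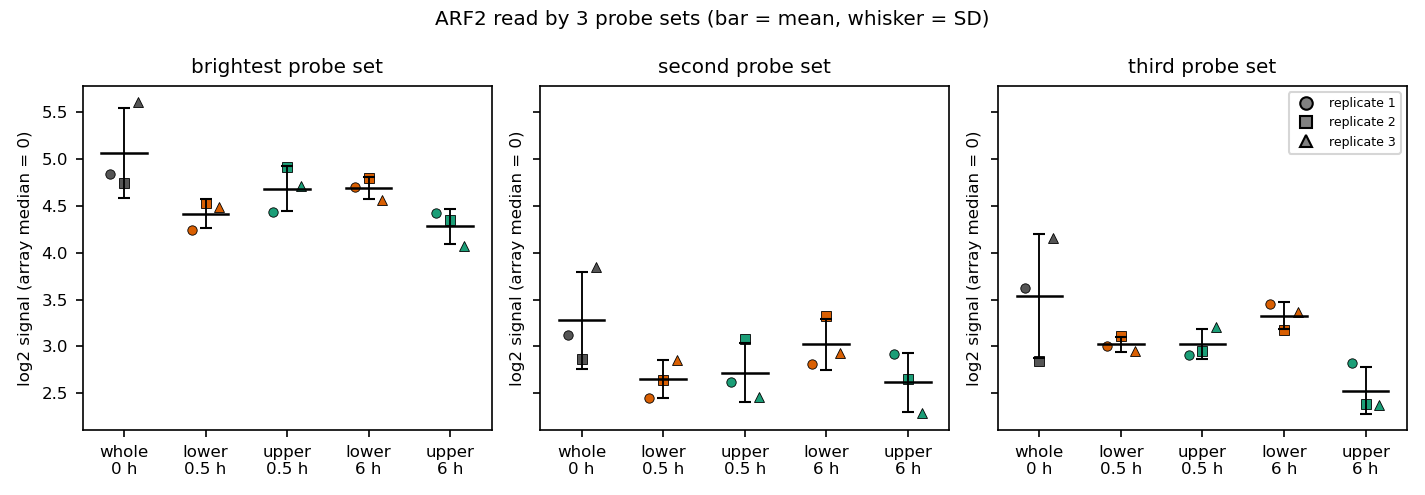
Log2 signal (array median at 0) of ARF2 by 3 probe sets on the 15 arrays, by group in order of time; bars are means, whiskers SD, and symbols mark replicate numbers. The lower flank at 6 h has the higher mean in each panel (differences 0.41, 0.40 and 0.80), and the groups overlap in the second panel. The third probe set is not among those that the annotation gives to ARF2 alone.

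ARF10, a miR160 target of the same class as ARF10, ARF16 and ARF17 of Arabidopsis, varied most. It read 3.87, 4.23 and 4.39 at 0 h. At 0.5 h it read 4.09, 4.61 and 4.38 in the lower flank and 4.35, 4.69 and 4.59 in the upper flank. At 6 h it read 2.84, 3.15 and 3.20 in the lower flank and 1.24, 2.11 and 1.85 in the upper flank. The 0 h and both 0.5 h groups overlapped, the lower flank at 6 h was below all of them, and the upper flank at 6 h was below the lower flank. Compared with 0 h, the differences were 0.19 in the lower and 0.38 in the upper flank at 0.5 h, and -1.10 in the lower and -2.43 in the upper flank at 6 h (SE 0.22 each), so that at 6 h its signal was 2.15-fold below 0 h in the lower and 5.39-fold below 0 h in the upper flank. Its higher signal in the lower flank at 6 h was thus a smaller departure from 0 h and not a signal above 0 h.

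ARF16, the activator counterpart, differed from ARF10 and ARF15 in that the lower flank was the group that stood apart. It read 4.33, 4.22 and 4.46 at 0 h, then 4.28, 4.18 and 4.49 in the lower flank and 4.31, 4.40 and 4.51 in the upper flank at 0.5 h. At 6 h it read 5.02, 5.25 and 4.95 in the lower flank and 4.37, 4.56 and 4.34 in the upper flank. The lower flank at 6 h was above every array of the other 4 groups, which overlapped one another in the order of their means. Against 0 h its difference was 0.74 (SE 0.13), a 1.67-fold higher signal, while that of the upper flank at 6 h was 0.09 (SE 0.13). At 0.5 h the means of both flanks lay within 0.07 of 0 h (0.26 above it in the lower flank with no centring).

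ARF17, a miR167 target of the class of the Arabidopsis activators ARF6 and ARF8, differed more between times than between flanks. It read 6.37, 6.15 and 6.58 at 0 h, then 5.67, 5.77 and 5.81 in the lower flank and 5.81, 6.01 and 5.94 in the upper flank at 0.5 h. At 6 h it read 6.41, 6.56 and 6.63 in the lower flank and 6.78, 6.80 and 6.68 in the upper flank. Both flanks at 0.5 h were below every 0 h array, and the upper flank at 6 h was above every array of the other groups. The differences from 0 h were -0.62 in the lower and -0.45 in the upper flank at 0.5 h, and 0.17 in the lower and 0.39 in the upper flank at 6 h (SE 0.12 each). Between the 2 times the signal was higher at 6 h by 0.78 in the lower (0.46 with no centring) and by 0.84 in the upper flank. From 0.5 h to 6 h, 4 of the 6 genes in the lower flank and 5 of the 6 in the upper flank were free of overlap, where 38.4% and 49.1% of all probe sets were, ARF17 among them in both flanks.

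ARF12, the other miR167 target, was highest before reorientation. It read 6.77, 6.68 and 7.34 at 0 h, then 6.06, 6.42 and 6.42 in the lower flank and 6.42, 6.91 and 6.58 in the upper flank at 0.5 h. At 6 h it read 6.06, 6.21 and 6.20 in the lower flank and 6.42, 6.42 and 6.27 in the upper flank. The 0 h arrays overlapped the upper flank at 0.5 h and lay above the lower flank of 0.5 h and above both flanks of 6 h. The differences from 0 h were -0.63 in the lower and -0.29 in the upper flank at 0.5 h, and -0.77 in the lower and -0.56 in the upper flank at 6 h (SE 0.18 each). As in ARF2, they rest in part on the third 0 h array: without it they were -0.42, -0.08, -0.56 and -0.35 in the same order. ARF12 and ARF17, although of 1 small RNA class, thus lay on opposite sides of 0 h in the upper flank at 6 h, while in the lower flank ARF17 overlapped the 0 h arrays.

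The flank differences were also taken within same-numbered arrays. For ARF10 they were 1.60, 1.04 and 1.34 at 6 h in replicates 1, 2 and 3, for ARF15 0.38, 0.69 and 0.89, for ARF16 0.65, 0.69 and 0.61, and for ARF2 0.28, 0.45 and 0.49. Each of these was above 0 in the replicate with the high DapX signal and in the other two. For ARF12 they were -0.35, -0.21 and -0.07, and for ARF17 -0.37, -0.25 and -0.05, so that for both genes the difference was widest in replicate 1. With replicates 2 and 3 alone, the mean difference was 1.19 for ARF10, 0.79 for ARF15, 0.65 for ARF16, 0.47 for ARF2, -0.14 for ARF12 and -0.15 for ARF17.

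To see how far the flank pattern extended in the family, the other 10 ARF genes above the filter on low signals were tested with limma across all 28630 probe sets. None of the 10 passed an adjusted p of 0.05 between the flanks at 6 h, and none had an unadjusted p under 0.05, where 1.75% of all probe sets passed. With the replicate number as a block over 15 arrays, ARF22 alone had an unadjusted p under 0.05 and none of the 10 passed, while 945 probe sets passed against 502 without the block. By the brightest probe set of each gene, the differences of the 10 lay between -0.18 and 0.26, and none was free of overlap between the flanks. A second probe set of ARF23 gave 0.60 (SE 0.37), with overlap and without passing the test. The median difference was 0.53 over the 6 genes and 0.01 over the other 10, against -0.08 over all probe sets. The outer places of the range were held by the 6 chosen genes, 4 at the top and 2 at the bottom, which the choice of genes had fixed.

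**Figure D3:**
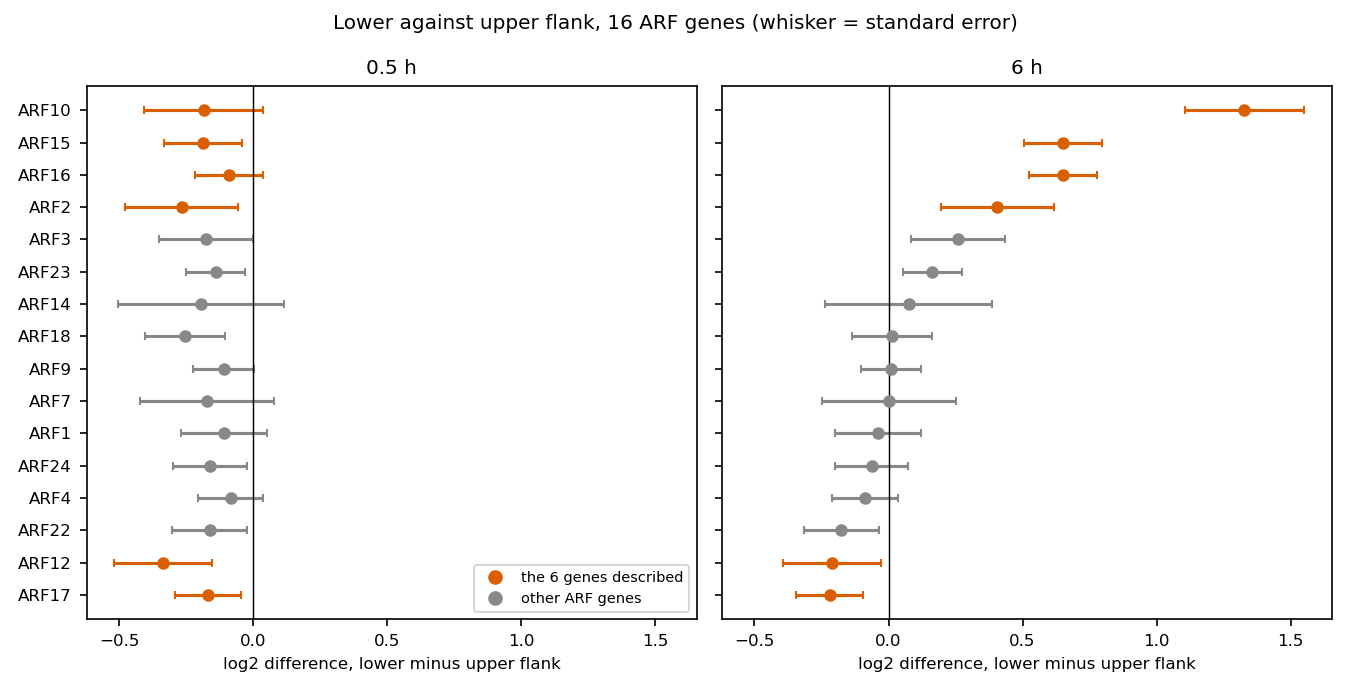
Log2 difference (lower minus upper flank) of the 16 tested ARF genes at 0.5 h (left) and 6 h (right), with standard errors; orange marks the 6 genes described and grey the other 10, in the order of the 6 h differences. At 6 h ARF10 is at 1.33 and the other 10 genes lie between -0.18 and 0.26, and at 0.5 h all 16 lie below 0 (3 of 16 with no centring of the arrays).

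At 0.5 h the picture was narrower. All 16 ARF genes had a difference below 0 (median -0.17, against -0.08 over all probe sets), with the 6 genes between -0.34 and -0.09 and the other 10 between -0.26 and -0.08. Of all 28630 probe sets, 19044 were below 0 as well. The sign depends on the centring of the arrays: with no centring 13 of the 16 were above 0, when the median of all probe sets was itself 0.14. The ARF median was then 0.049. With quantile scaling all 16 were below 0, and with 16 added to the signal 15 of the 16 were, both with centring. None of the other 10 genes passed the test or had an unadjusted p under 0.05, with or without the replicate number as a block, and 0.00699% of all probe sets passed. ARF12 was the only one of the 6 free of overlap (lower in the lower flank, where 7.12% of probe sets were), and its nearest arrays on either side both rounded to 6.42.

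The flank difference at 6 h was larger than that at 0.5 h by 1.51 (SE 0.32) in ARF10, 0.84 (SE 0.21) in ARF15, 0.74 (SE 0.18) in ARF16 and 0.67 (SE 0.30) in ARF2. In each of these 4 genes the 3 same-numbered differences were below 0 at 0.5 h and above 0 at 6 h. Over all 28630 probe sets, the mean difference was below 0 for 19044 at 0.5 h and for 17753 at 6 h. With no centring the 0.5 h means of ARF10, ARF15 and ARF16 were above 0 (0.033, 0.032 and 0.13) and that of ARF2 alone was below it (-0.049). The change in the flank difference was 0.12 (SE 0.26) in ARF12 and -0.05 (SE 0.18) in ARF17, within the standard error. None of the other 10 genes passed the test of this change, with 0 at an unadjusted p under 0.05, and 0.545% of all probe sets passed.

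Against 0 h, most ARF genes had a lower signal at 6 h. Of the 16 genes, 12 had a difference below 0 in each flank, with a median of -0.37 in the lower flank (all probe sets -0.14) and -0.56 in the upper flank (all probe sets -0.08). Among the other 10 genes, 4 fell in the lower flank and 5 fell in the upper flank and none rose, where 20.5% and 23.4% of all probe sets passed the test in either direction and 14.3% and 15.4% fell. ARF9 fell by 0.96 in the lower flank (adjusted p = 0.00011, limma) and by 0.97 in the upper flank (adjusted p = 8.66e-05). ARF9 read 5.91, 5.95 and 5.84 in the lower flank and 6.00, 5.98 and 5.70 in the upper flank at 6 h, against 6.76, 6.84 and 6.97 at 0 h, and it passed the test under each of the 24 alternatives tried.

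ARF24, ARF18 and ARF23 also fell in both flanks at 6 h. ARF24 fell by 0.73 in the lower and by 0.67 in the upper flank (adjusted p = 0.00258 and 0.00386, limma), ARF18, a miR160 target, by 0.55 and by 0.56 (0.0214 and 0.0166), and ARF23 by 0.39 and by 0.56 (0.0231 and 0.00287). The second probe set of ARF23 did not pass in the lower flank (-0.68, adjusted p = 0.217, limma) and passed in the upper flank (-1.28, adjusted p = 0.0226). ARF3, a TAS3 target, fell by 0.63 in the upper flank (adjusted p = 0.0195, limma). ARF18 in either flank, ARF23 in the lower flank and ARF3 lost the call without the third 0 h array. ARF23 in the lower flank also lost it without lower-flank array 1 or 2 of 6 h, ARF18 without lower-flank array 1 or 3 or upper-flank array 3, and ARF3 without upper-flank array 3. Of the 6 chosen genes, 3 were free of overlap with 0 h in the lower flank (ARF10, ARF12 and ARF16) and 5 in the upper flank (all but ARF16), where 31.9% and 37.9% of all probe sets were. Within the 6, ARF10, ARF12 and ARF2 shared the direction of these genes in both flanks, ARF16 and ARF17 had differences above 0 in both, and ARF15 was below 0 in the upper flank alone.

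**Figure D4:**
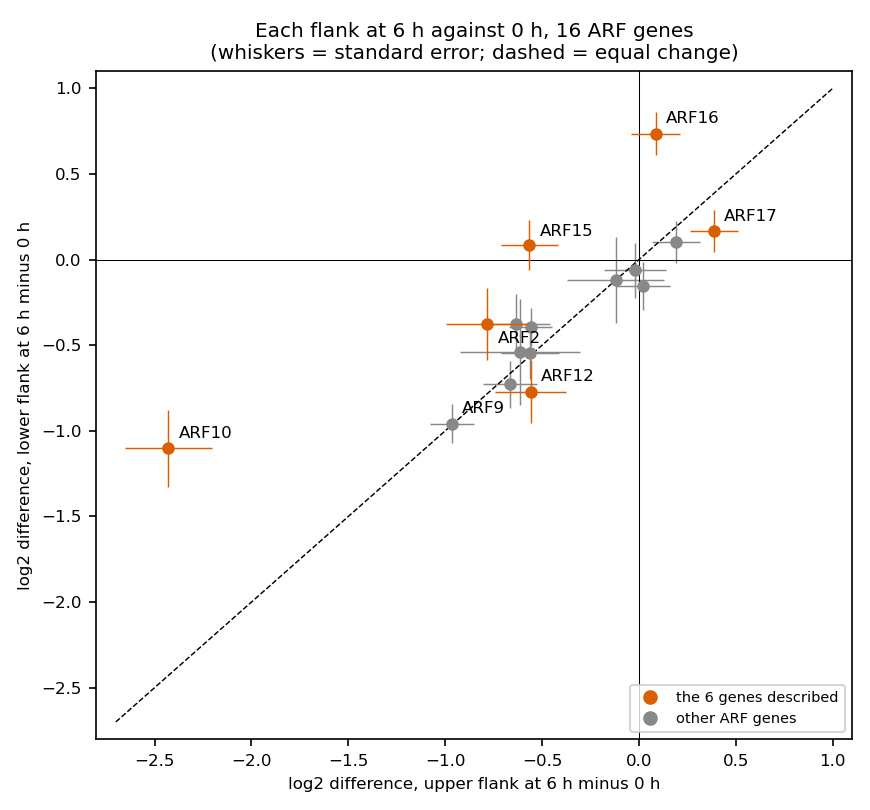
Log2 difference from 0 h of the 16 tested ARF genes in the upper flank (horizontal axis) and the lower flank (vertical axis) at 6 h, with standard errors; the dashed line marks equal differences, orange the 6 genes described and grey the other 10. ARF10 (-2.43 and -1.10), ARF15 (-0.56 and 0.09) and ARF16 (0.09 and 0.74) lie above the line, and ARF9 (-0.97 and -0.96) lies on it.

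At 0.5 h none of the other 10 ARF genes differed from 0 h by the test in either flank, with 2 at an unadjusted p under 0.05 in the lower flank and none in the upper flank (1.63% and 1.68% of all probe sets passed). Of the 6 genes, ARF2, ARF12 and ARF17 were below the 0 h arrays without overlap in the lower flank, and ARF17 alone in the upper flank, where 16.2% and 12.6% of probe sets were lower without overlap. With no centring the lower-flank differences of ARF2, ARF12 and ARF17 from 0 h were -0.37, -0.35 and -0.34. ARF10, ARF15 and ARF16 overlapped 0 h in both flanks at that time. Between 0.5 h and 6 h within a flank, ARF9 fell by 0.81 in the lower flank (adjusted p = 0.000216, limma) and by 0.92 in the upper flank (adjusted p = 5.6e-05). ARF4 rose by 0.43 in each flank (adjusted p = 0.0215 and 0.0162, limma), calls that were lost with no centring or with 16 added to the signal, in the lower flank also without array 1 of 0.5 h or array 3 of 6 h, and in the upper flank without array 3 of 0.5 h or array 1 or 2 of 6 h. Its second probe set read 6.58, 6.45 and 6.68 in the lower flank at 6 h against 5.91, 6.03 and 5.98 at 0.5 h. In the upper flank ARF3, ARF14, ARF18, ARF23 and ARF24 fell as well, so that 7 of the 10 passed in the upper and 2 of the 10 in the lower flank (32.8% and 24.3% of all probe sets), and the difference between the flanks in this change passed for none. Of these, ARF14, ARF18 and ARF24 lost the call when single upper-flank arrays were left out (ARF14 without 4 of them, ARF18 without 2 and ARF24 without 5). The second probe set of ARF23 did not pass in the upper flank from 0.5 h to 6 h (-0.85, adjusted p = 0.096, limma).

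Grouped by small RNA class, the 4 tested TAS3 targets (ARF2, ARF3, ARF14 and ARF15) were all above 0 in the lower minus upper difference at 6 h, between 0.07 and 0.65 with a median of 0.33, but only ARF2 and ARF15 were chosen genes and neither ARF3 (0.26, SE 0.17) nor ARF14 (0.07, SE 0.31) passed the test. All 4 were below 0 in the upper flank at 6 h against 0 h, with a median of -0.62. The 3 tested miR160 targets did not move alike, since the flank difference at 6 h was 1.33 in ARF10, 0.01 in ARF18 and -0.18 in ARF22. Of the genes that make or use these small RNAs, 7 were tested: SHL2, DCL4 and SGS3 of the trans-acting siRNA route, and the Argonautes AGO1A, AGO1B, AGO1C and AGO1D. None passed between the flanks at 0.5 h or 6 h. All 7 differences were below 0 at both times, as were those of 19044 of the 28630 probe sets at 0.5 h and 17753 at 6 h. With no centring only 1 of 7 was below 0 at 0.5 h. With quantile scaling 5 of 7 were at 0.5 h and 6 of 7 at 6 h. SGS3, which stabilises the cleaved TAS RNA, fell by 0.99 in the lower and by 0.87 in the upper flank at 6 h against 0 h (adjusted p = 0.00209 and 0.00413, limma), and AGO1D fell by 0.64 in the lower flank (adjusted p = 0.0124), a call lost without the third 0 h array. These calls, 2 of 7 in the lower and 1 of 7 in the upper flank, stand beside 20.5% and 23.4% of all probe sets called. At 0.5 h AGO1B was the 1 gene of the 7 that fell against 0 h in the lower flank (by 0.68, adjusted p = 0.0331, limma), and from 0.5 h to 6 h it rose by 0.40 in the lower and by 0.38 in the upper flank (adjusted p = 0.0494 and 0.0478), while SGS3 fell in both. Each of these 3 calls of AGO1B was lost under at least 12 of 24 alternatives, among them quantile scaling, no centring and replicates 2 and 3 alone.

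The partners of the ARF proteins were read as well. Of 25 tested Aux/IAA genes, which encode the repressors that bind ARF proteins, 9 rose and 1 fell in the lower relative to the upper flank at 6 h, where 1.75% of all probe sets passed. Each call named next was made in all fits that left out 1 array, except that of IAA18. The genes included IAA20 (4.93, adjusted p = 4.73e-05, limma), IAA9 (2.90, 0.000546), IAA14 (2.11, 0.00317) and IAA12 (1.77, 3.87e-06) at the high end, and IAA18 fell by 1.18 (0.0348), a call lost without any 1 of 8 flank arrays. With replicates 2 and 3 alone, IAA9, IAA14 and IAA18 lost the call. None of the 25 passed at 0.5 h. The change of the flank difference between 0.5 h and 6 h passed for 4 of them (IAA9, IAA12, IAA13 and IAA20), and for 7 with the replicate number as a block, but for none with replicates 2 and 3 alone, and IAA9 lost that call without any 1 of 9 flank arrays. The corepressor genes TPR3 and ASPR2 did not pass in any comparison, and the TIR1/AFB receptor genes matched no probe set by name and were not analysed here.

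Each of the 6 profiles over the 15 arrays was compared with those of 2695 tested probe sets of 1 named gene, as a description over arrays that share groups. ARF10 was closest to CLA1 (r = 0.99), which encodes the first enzyme of the plastid isoprenoid route, and then to cope1 (0.97) and SPS2 (0.96). ARF15 was closest to CIPK3 (0.95), KIN5A (0.93) and the Aux/IAA gene IAA24 (0.93), of which IAA24 was itself among the 9 that rose (0.97, adjusted p = 0.00785, limma). ARF16 was closest to BZIP06 (0.95), the cyclin gene CYCP4-1 (0.95) and CSLC1 (0.94). ARF17 was closest to BP-73, ADF5 and the phytochrome gene PhyB (0.96 each), ARF12 to RFC1 (0.93), the phytosulfokine precursor gene PSK2 (0.91) and ARP4 (0.91), and ARF2 less closely to SAPK4, GRXC3 and NIP1-1 (0.82 each). Among the 6 themselves, ARF2 followed ARF12 (r = 0.78) and ARF15 (0.72), ARF15 followed ARF10 (0.72), and ARF17 ran opposite to ARF10 (-0.79), so they did not share 1 profile.

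Markers of tissue makeup were read beside these results. The shoot meristem genes OSH1, OSH43 and OSH71 had a summed signal of 232 to 310 times the array median over all groups, so that meristem markers of the labelled tissue were bright, and OSH43 alone of the 3 rose in the lower relative to the upper flank at 6 h (1.76, adjusted p = 0.00215, limma). The cell division genes PCNA and CDKB2;1 summed to between 39.4 and 80.5 times the array median at 0 h, to between 69.9 and 85.0 over both flanks at 0.5 h and to at most 27.9 over both flanks at 6 h, and both fell in each flank at 6 h against 0 h, although CDKB2;1 lost the call in either flank without the third 0 h array, with quantile scaling or with no centring. The secondary wall genes CESA4, CESA7 and CESA9 summed to 137 to 191 at 0 h and 60.7 to 88.4 over both flanks at 6 h, and all 3 fell in each flank, CESA9 with calls that were lost in either flank without the first or the third 0 h array or with no centring. None of these 5 genes passed between the flanks at 6 h, where the green leaf genes, with 3 of 4 tested, also had none. The part of these tissue changes in the differences of ARF transcripts from 0 h was not tested. Of the array's own rice controls, the 5′ probe sets of actin, GAPDH and cyclophilin were higher in the lower than in the upper flank at 6 h by 0.99, 0.62 and 0.50. The differences were 0.54, 0.05 and 0.43 at their 3′ ends, and 0.01 for ubiquitin at its 5′ end. At 0.5 h the flank differences of actin, GAPDH and cyclophilin were 0.21, 0.84 and 0.13 at the 5′ ends. They were -0.18, -0.05 and -0.19 at the 3′ ends at that time, and ubiquitin gave 0.07 at its 5′ end. Against 0 h, the same 5′ probe sets differed by -1.50, -1.04 and -0.82 in the upper flank at 6 h. In the lower flank they differed by -0.51, -0.43 and -0.32. Ubiquitin at its 5′ end differed from 0 h by 0.01 in the upper and 0.02 in the lower flank. The part of this in the flank differences of ARF10, ARF15, ARF16 and ARF2, or in the ARF differences from 0 h, was not tested.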

How the data were processed

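RNA of 15 samples was read on Affymetrix Rice Genome arrays. The authors computed each deposited signal intensity with GCOS (MAS5, per the labels), on a linear scale; their later centring per gene and filter on detection calls were not applied. Here log2 intensity was taken, each array was centred on its median, 121 control probe sets were left out, and the 50% of probe sets with the highest mean (28630) were tested with limma (version 3.58.1, under R version 4.3.3). The fit held a mean for each of the 5 groups, with 10 residual degrees of freedom and Benjamini-Hochberg adjustment within each comparison. In data simulated for the lower minus upper difference at 6 h over 28630 probe sets, 44 of 100 changes of size 1 and 89 of 100 of size 2 on the log2 scale were recovered, with 7 false calls. The simulated noise was normal and independent between arrays, without the likeness of same-numbered arrays. Only these changes were planted, so the rates need not hold for the real data. The number of arrays limits the precision. Gene names came from the array annotation, in which 22436 probe sets have 1 gene, 95 have several and 34850 have none listed, updated through a RefSeq table that numbers 23 ARF genes, of which 17 had a probe set. ARF13 was below the filter on low signals. No array column went unused (0 columns), and no sequence or coordinate is given, since no genome or sequence table was used here.

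Named genes are the 6 ARF genes, any other ARF gene called in a comparison described, the 3 probe sets of 1 named gene that correlate best with each of the 6, and genes of the pathway lists called between flanks; names beyond this rule (list members not called, SGS3, AGO1D and marker genes) were added after their values were seen. The genes and lists were chosen with earlier results of these data known. Same-numbered lower and upper flanks correlated in their deviations from the group means (0.48, 0.26 and 0.41 at 6 h, and 0.50, 0.22 and 0.24 at 0.5 h), as did the lower flank at 0.5 h with 0 h (0.42, 0.15 and 0.29). The other comparisons had at least 1 pair at or under 0.1. The main fit held no pairs, so its standard errors and calls do not use them. Pairing entered through the same-numbered flank differences of the 6 genes and the replicate block tried as an alternative. For the lower flank at 0.5 h against 0 h, 467 probe sets passed without the block and 1891 with it over 15 arrays. Alternatives tried were quantile scaling, no centring, no filter, a 25% filter, 16 added to the signal, an intensity trend, only the groups compared, the replicate number as a block, replicates 2 and 3 alone, other probe sets of a gene and leaving out each array.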

Additional observations from a re-analysis of the deposited data

Results flagged for a closer look

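In 4 transcripts the lower minus upper difference was below 0 at 0.5 h and above 0 at 6 h in every same-numbered pair of arrays. These genes were chosen with their signals known. Over all 28630 probe sets, the mean difference was below 0 for 19044 at 0.5 h (median -0.08) and for 17753 at 6 h. The ARF16 pairs at 0.5 h were -0.03, -0.22 and -0.02. The share of all probe sets with the pattern of the 4 transcripts was not counted. The mean flank difference at 6 h minus that at 0.5 h was 0.67 in ARF2, 0.84 in ARF15, 1.51 in ARF10 and 0.74 in ARF16. With no centring the 0.5 h means of ARF10, ARF15 and ARF16 were above 0 (0.033, 0.032 and 0.13), and only ARF2 stayed below 0 (-0.049). The opposite sign at 0.5 h thus depends on the centring in these 3 of the 4. With quantile scaling or with 16 added to the signal, both with centring, all 6 chosen genes stayed below 0 at 0.5 h.

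Relative to the 0 h mean, all arrays of a flank lay on one side at 6 h and on the other side at 0.5 h in 2 transcripts. ARF17 was above the 0 h mean at 6 h and below it at 0.5 h, a difference between the times of 0.78 in the lower and 0.84 in the upper flank. ARF10 in the upper flank was below the 0 h mean at 6 h and above it at 0.5 h, a difference of -2.81. The side of the 0 h mean leaves out the spread of the 0 h arrays. ARF17 in the lower flank at 6 h overlapped those arrays (0.17, SE 0.12). So did ARF10 in the upper flank at 0.5 h (0.38, SE 0.22). The share of all probe sets that changed sides in this way was not counted. The differences between the times were not tested, since the genes were chosen with their signals known.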

How the results depend on the processing

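The lower minus upper difference at 6 h kept its direction in all 6 genes under each alternative. Over all comparisons and alternatives 1090 values of the 6 genes stayed within 1 SD of the replicates and 26 did not. Many of the 1090 could not move, so this count does not measure stability. A difference of group means is unchanged by the replicate block, or when an array of a group outside the comparison is left out. With no centring, the lower minus upper difference at 0.5 h was 0.0316 in ARF15, 0.033 in ARF10, 0.050 in ARF17, 0.13 in ARF16 and 0.049 as the ARF family median, and its change to 6 h was 0.62 in ARF15, -0.27 in ARF17, 0.52 in ARF16 and 0.0066 as the family median. In that setting the lower flank at 0.5 h minus 0 h was -0.37 in ARF2, 0.18 in ARF15, -0.35 in ARF12, -0.34 in ARF17, 0.26 in ARF16 and 0.15 as the family median. The lower flank at 6 h minus 0.5 h was then -0.054 in ARF2, -0.14 in ARF15, -0.47 in ARF12, 0.46 in ARF17, -1.62 in ARF10, 0.43 in ARF16 and -0.50 as the family median. The median of all probe sets was moved by the same setting (to 0.14 in the 0.5 h flank difference, 0.16 for the 0.5 h lower flank minus 0 h and -0.35 for the lower flank at 6 h minus 0.5 h), and no centring leaves such shifts in by construction. Quantile scaling gave 0.12 for ARF16 (lower flank at 0.5 h minus 0 h), and 16 added to the signal gave 0.64 for ARF17 and 0.61 for ARF16 in the lower flank at 6 h minus 0.5 h. The second probe set of ARF2 gave -0.10 in the upper flank at 6 h minus 0.5 h. The third, chosen after seeing the data and not given to ARF2 alone by the annotation, gave 0.80 between the flanks at 6 h.

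The other ARF genes called numbered 4 in the lower flank at 6 h minus 0 h (2 with no centring, 2 with no filter, 1 with only the groups compared), 5 in the upper flank (3, 3 and 2), 2 in the lower flank at 6 h minus 0.5 h (6, 1 and 1, with 6 when 16 was added) and 7 in the upper flank (4 with no centring and 3 with no filter). With the replicate number as a block the third of these counts was 4, in groups whose numbers are not pairs, and no other count of ARF genes called was moved by the block. Of all probe sets 502 were called between flanks at 6 h and 156 in the change from 0.5 h, against 945 and 258 with the block over 15 arrays and 1067 and 296 with it over 12. Aux/IAA genes called between flanks at 6 h numbered 10 (6 with no filter, 5 with only the groups compared). For the change from 0.5 h they numbered 4 (7 with quantile scaling, 1 with no centring, 7 with the replicate block over 15 or 12 arrays, 0 with replicates 2 and 3 alone). The small RNA genes numbered 2 in the lower flank at 6 h minus 0 h (1 with no centring, no filter, only the groups compared, or replicates 2 and 3 alone) and 1 in the upper flank (2 with the block over 15 arrays). The list alternatives were added after seeing the data, and the causes were not tested.

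Leaving out each array gave -0.45 to -0.20 for the family median of the lower flank at 6 h minus 0 h, and for ARF2 minus 0 h -0.81 to -0.37 and -0.54 to -0.10 in the lower flank and -0.54 to -0.10 and -0.94 to -0.51 in the upper flank, each at 0.5 h and then at 6 h. It gave 2 to 5 and 3 to 6 other ARF genes called in the lower and the upper flank at 6 h minus 0 h, 1 to 3 and 4 to 7 at 6 h minus 0.5 h, and 1 to 2 small RNA genes in either flank at 6 h minus 0 h.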

Other observations

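A probe set that a table of the study pairs with ARF19, and that the array annotation used here does not list for that gene, read 3.88, 3.98 and 4.34 in the lower flank against 2.98, 3.18 and 3.33 in the upper flank at 6 h, without overlap (difference 0.90, SE 0.14). It read 3.91, 4.02 and 3.95 in the lower flank against 3.86, 4.05 and 3.85 in the upper flank at 0.5 h, and 4.06, 4.03 and 3.81 at 0 h. The upper flank at 6 h was below every array of the other 4 groups (-0.80 from 0 h, SE 0.14). Like ARF16, ARF19 is a rice counterpart of the Arabidopsis activators ARF7 and ARF19, but in ARF16 the lower flank at 6 h was the group that stood apart. The probe set was looked up after the flank pattern of the 6 genes was known, and it was not counted with the family.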
